A study of Mus musculus with 8 samples.

Results

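The amino acid response genes are a set of 36 mouse genes known to be switched on, or to act, when the transcription factor ATF4 answers a shortage of amino acids. The members were a given list of symbols, not picked by a threshold in these libraries, though chosen with earlier results of these data known. Each was matched to a gene identifier of the count table. All 36 had enough reads to be tested, among 19392 tested genes of 55487 in the table. They were followed by RNA-seq of poly(A) RNA, in 8 libraries of fibroblasts from mouse embryos (MEFs) in the first days of reprogramming towards pluripotency.

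All cells shared one genotype on the C57BL/6 background: one copy of Rosa26-rtTA, the doxycycline-activated switch, and one copy of Tet-O-OSKM, the cassette of the reprogramming factors Oct4, Sox2, Klf4 and Myc. Every culture received doxycycline for 72 h, at 1 µg/mL by the sample labels but 1 mg/mL by the study's design text and methods. The treatments, with 2 libraries each, were 10 µM NSC636819 (NSC, which blocks KDM4A and KDM4B, enzymes that remove methyl groups from histones), 100 µM S-adenosylmethionine (SAM, the methyl donor made from methionine), 2 µM vitamin B12 with 2 µM PF-9366 (B12 + MAT2Ai, an inhibitor of MAT2A, the enzyme that makes SAM), and 2 µM vitamin B12 alone. Vitamin B12 is the cofactor of methionine synthase. Cells with doxycycline and no added compound were not analysed here, so each value below is relative to another treated culture. Each treatment was given to MEF 61.5 and to MEF 61.3, cultures of separate embryos, and wherever a pair of values is given for a treatment, MEF 61.5 stands before MEF 61.3. P-values therefore rest on n = 2 per treatment.

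When uncharged tRNA accumulates, the kinase GCN2 phosphorylates the initiation factor eIF2, most translation slows, and the Atf4 transcript is translated more. Other eIF2 kinases respond to unfolded protein, haem shortage or double-stranded RNA and converge on the same factor. ATF4 then pairs with C/EBP proteins at a composite element, the C/EBP-ATF response element, and induces amino acid transporters, synthetic enzymes, tRNA synthetases and feedback regulators. Read counts measure transcripts, so the translation of Atf4 and the phosphorylation of eIF2 are outside these data.

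The element was searched for in the promoters of RefSeq (GRCm38.p6), 250 bases before to 50 after each start site, as the letters TGATGNAA on both strands. Of the members, 31 of 36 had a promoter in that table, and 13 of the 31 (41.9%) held the letters in at least 1 promoter, against 4.51% of all 27025 genes and 3.97% of all 32851 promoters. The 13 were Atf3, Nupr1, Jdp2, Trib3, Chac1, Slc7a11, Slc1a4, Aars, Gars, Asns, Pycr1, Pck2 and Vldlr, with 2 matches each in Slc7a11 and Aars. Such a match is a run of letters and no measurement of binding. The windows of 30 bases below are shown because the first 3 belong to members that differed between treatments and the last 3 to members often read as reporters of the pathway. Each is written 5′ to 3′ on the strand of the gene, with the matched letters or their reverse complement in capitals.
Atf3 (chr1:191183425-191183454, minus strand): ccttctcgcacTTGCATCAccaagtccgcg
Slc1a4 (chr11:20332699-20332728, minus strand): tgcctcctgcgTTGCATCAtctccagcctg
Vldlr (chr19:27216809-27216838, plus strand): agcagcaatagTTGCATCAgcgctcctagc
Asns (chr6:7693214-7693243, minus strand): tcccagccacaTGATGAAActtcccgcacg
Trib3 (chr2:152344028-152344057, minus strand): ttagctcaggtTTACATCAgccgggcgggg
Chac1 (chr2:119351038-119351067, plus strand): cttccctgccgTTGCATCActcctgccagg

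Libraries held 27498180 to 38565685 counted reads, and 26645 to 27835 genes had a read. Mitochondrial genes took 1.23% to 1.69% of reads, except 2.33% in the NSC library of MEF 61.3. Of the fibroblast collagens, Col1a1 stood at 24394.4 to 34332.3 counts per 1000000 counted reads (CPM). Transcripts of macrophages were also present: Lyz2, a macrophage lysozyme, ranged between 316 and 3106.1 CPM, and the summed level of 17 macrophage markers was 2146 and 4213 CPM in NSC, 609 and 1873 in SAM, 2299 and 4729 in B12 + MAT2Ai and 2948 and 5315 in B12. Each sum was lower in MEF 61.5 than in MEF 61.3 under the same treatment. Of the markers, Cx3cr1 and Cd163 stayed near 0, at 0.0351 to 2.87 CPM. In bulk RNA a smaller number of macrophages and less RNA per macrophage cannot be told apart.

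Most members varied little over the 8 libraries. Their coefficient of variation (the SD of the CPM over its mean) had a median of 7.61%, beside 11.1% over all tested genes. Of the 36, 12 varied more than that median of all genes. This measure includes counting noise, which is larger at few reads, and genes of matched level were not compared. The ratio of the highest to the lowest library was under 1.5 for 25 members and over 2 for 4, namely Atf3, Gdf15, Stc2 and Trib3. Levels per length were taken as reads per kilobase of exon, scaled to the library (RPKM, mean ± SD over n = 8 libraries). The length merged the annotated exons of all transcripts of a gene, 8838 bases for Slc38a2 and 2358 for Atf4, so the order depends on it. In CPM, Slc38a2 was above Atf4, with medians of 355.6 and 117.5. By RPKM, Atf4 itself was the highest member at 49.8 ± 1.8, followed by Gars at 43.8 ± 2.8, Slc38a2 at 40.9 ± 4.9 and Cebpb at 35.1 ± 5.6. The SD ranges of Gars and Slc38a2 overlapped, as did those of Slc38a2 and Cebpb, but their order within single libraries was not compared. The lowest were Trib3 at 0.698 ± 0.17, Chac1 at 0.737 ± 0.10, Stc2 at 0.840 ± 0.22 and Gdf15 at 0.943 ± 0.37 RPKM, levels whose spreads overlapped.

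**Figure D1:**
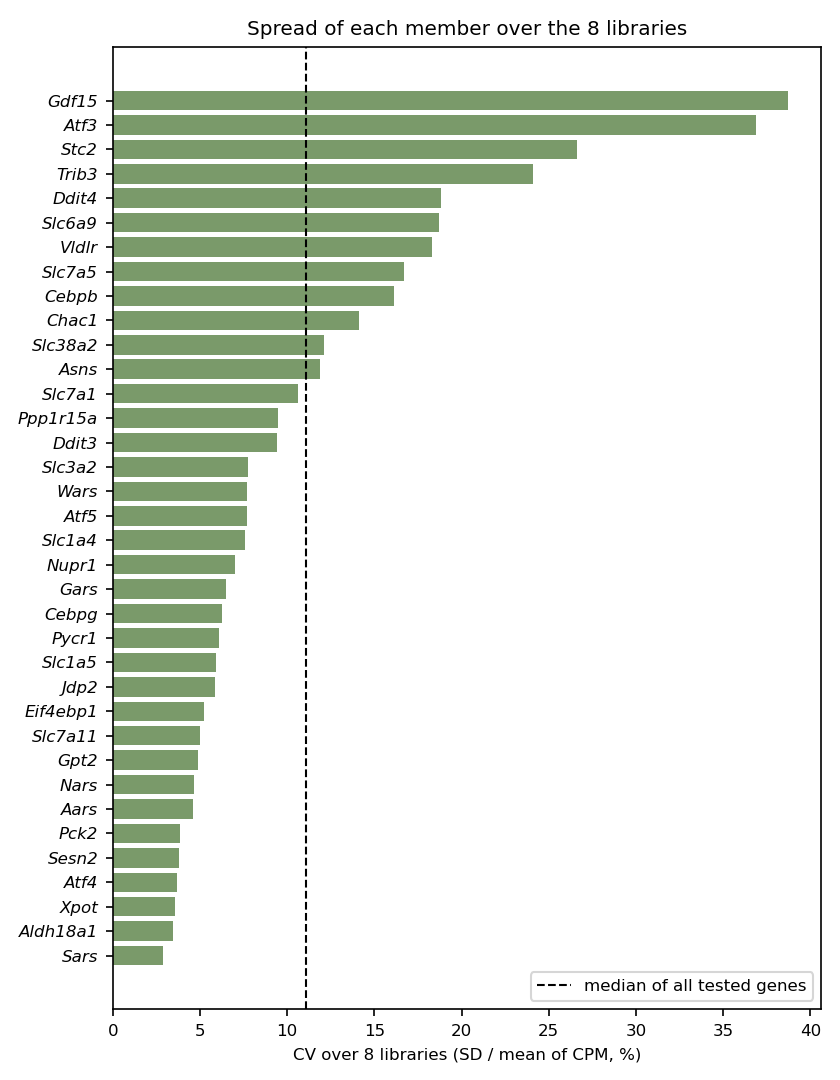
Coefficient of variation (SD over mean of CPM, in %) of each of the 36 members over the 8 libraries, as horizontal bars sorted by size. The dashed line marks the median of all tested genes, 11.1%, and Gdf15 (38.7%) and Atf3 (36.9%) reach furthest beyond it while Sars (2.9%) and Aldh18a1 (3.47%) vary least.

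Between SAM and B12, 5 members were called by the edgeR quasi-likelihood test at an adjusted p below 0.05. Ddit4 and Slc7a5 were higher in SAM (2 of 36, or 5.56%, against 2.78% of all tested genes). Atf3, Slc3a2 and Slc1a4 were lower (3 of 36, or 8.33%, against 4.93% of all tested genes). The median log2 fold change of the members was −0.04, beside −0.00 for all genes, and members spanned −1.09 (Atf3) to 0.46 (Ddit4). Both shares were near the background, within a couple of genes of it, so the counts are no result about the set.

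Between NSC and B12 no member was called by edgeR, where 0.284% of all genes were higher in NSC and 1.62% lower. At an unadjusted p below 0.05, 5 members passed, and DESeq2 called 0. The median was −0.01, and the highest log2 fold change was 0.37 for Vldlr (SE 0.09, adjusted p = 0.0597). With B12 + MAT2Ai against B12, edgeR called 0 members again, 4 passed at an unadjusted p below 0.05, and DESeq2 called 0. Of all genes 0.0722% were higher in B12 + MAT2Ai and 0.0155% lower, so few calls were made anywhere in the transcriptome. Member log2 fold changes lay between −0.25 (Vldlr) and 0.35 (Gdf15), with a median of −0.04.

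The direct comparison of NSC with SAM called the most members. Atf3, Cebpb, Slc38a2, Slc1a4 and Vldlr were higher in NSC (5 of 36, or 13.9%, against 5.1% of all genes), and Slc7a5 was lower (1 of 36, or 2.78%, against 4.42%). The median was 0.07, beside 0.01 for all genes. Against B12 + MAT2Ai, SAM had Ddit4 and Slc7a1 higher (5.56%, against 3.36% of all genes) and Atf3, Slc3a2 and Gdf15 lower (8.33%, against 4.81%). NSC against B12 + MAT2Ai had Vldlr higher (2.78%, against 1.76% of all genes) and no member lower (1.83% of all genes). Comparisons with SAM share the SAM libraries, so their calls are not independent of one another. In all, 10 of the 36 members were called in at least 1 of the 6 comparisons of treatments (27.8%, against 15.6% of all tested genes) and 26 in none. Every one of the 17 calls between treatments had the same sign in both MEFs. With 2 MEFs a call nearly requires this, so the agreement adds no support. Each call was lost when the model held no term for MEF. That model called at most 0.00516% of all genes in the comparisons with member calls, so the loss is not particular to the members. DESeq2 did not call Slc7a5, Slc3a2 or Slc1a4 in SAM against B12 (adjusted p = 0.0791, 0.124 and 0.156), Slc1a4 or Vldlr in NSC against SAM (0.161 and 0.0564), or Slc7a1 or Slc3a2 in SAM against B12 + MAT2Ai (0.0933 and 0.132). With the SAM and B12 libraries alone, Slc3a2 and Slc1a4 also lost their calls (0.210 and 0.110).

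**Figure D2:**
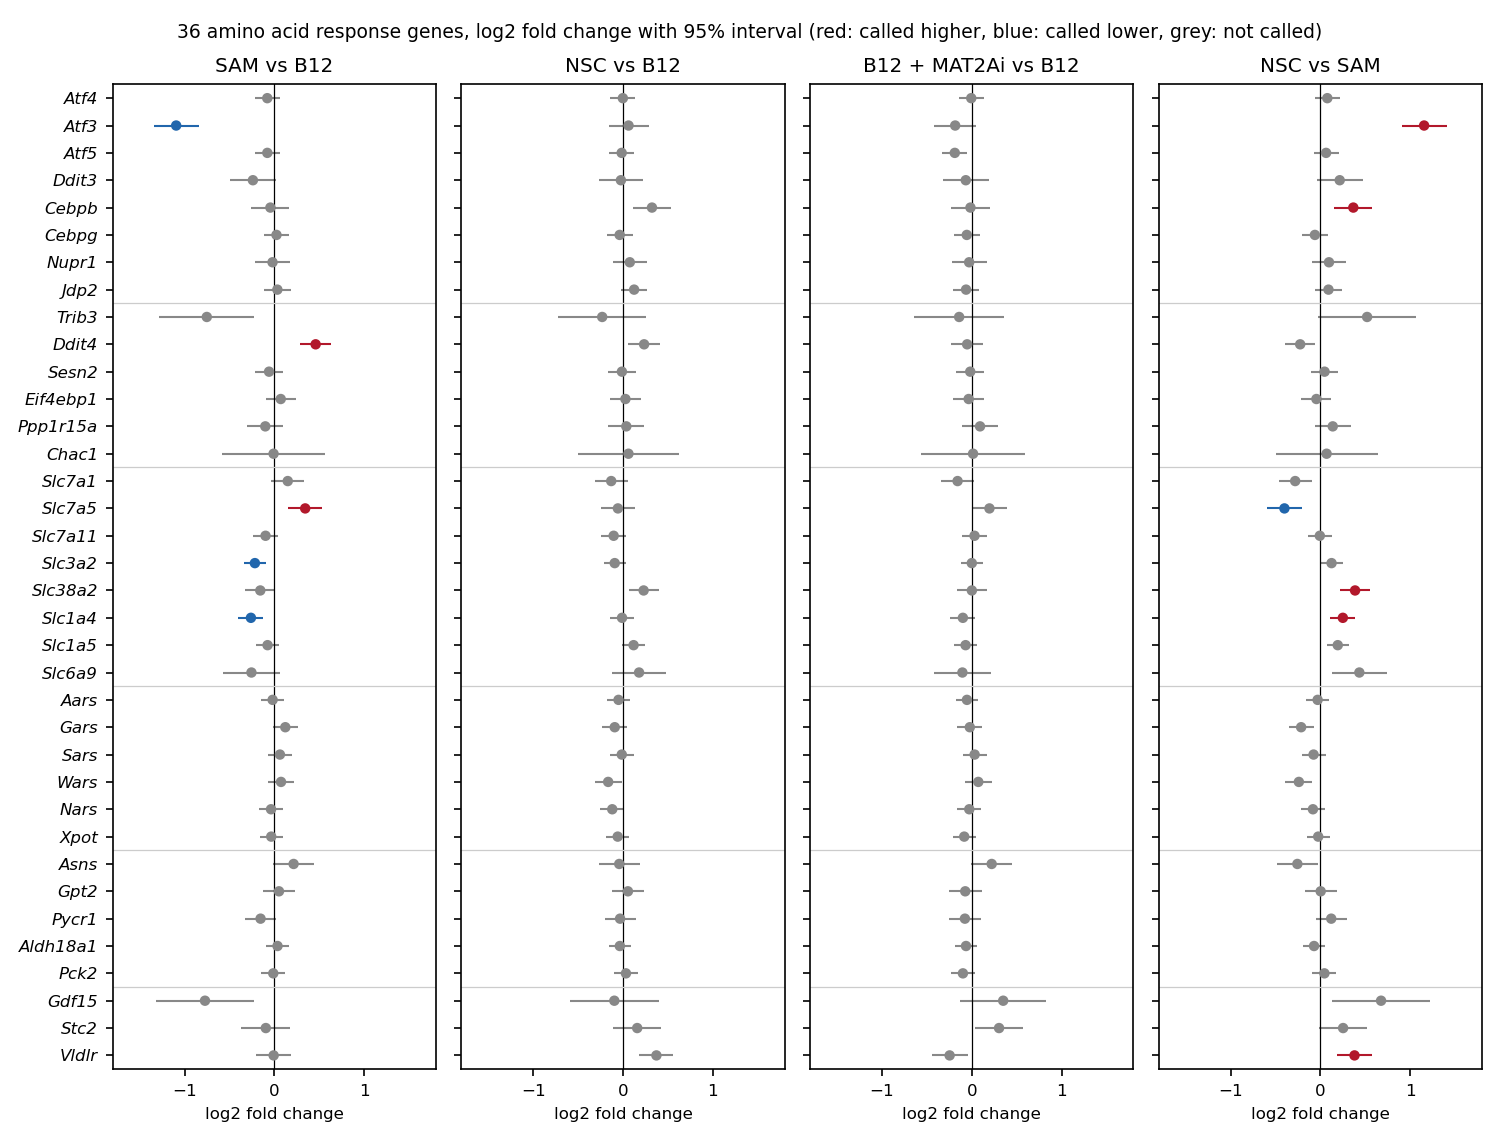
Log2 fold change (x axis) of each of the 36 members (y axis, grouped by role) in SAM against B12, NSC against B12, B12 + MAT2Ai against B12 and NSC against SAM, with points for estimates and bars for 95% intervals. Red marks members called higher, blue members called lower and grey those not called; calls are seen in SAM against B12 (5) and NSC against SAM (6), and none in the other panels.

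Atf4, the central transcription factor, was not called between any treatments. It was measured at 120 and 118 CPM in NSC, 114 and 112 CPM in SAM, 121 and 117 CPM in B12 + MAT2Ai and 114 and 125 CPM in B12. The groups overlapped for each pair that included B12. The log2 fold changes over the 6 comparisons stayed between −0.08 and 0.08, the lowest adjusted p was 0.495, and the 95% intervals reached no further than −0.22 and 0.22. Without the B12 library of MEF 61.5 the value for SAM against B12 was −0.16 (adjusted p = 0.306), and without that of MEF 61.3 it was 0.00 (0.993). NSC against B12 was −0.08 and 0.08 without the same libraries.

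Atf3, an ATF family repressor and early stress gene, gave the clearest difference of the set. It had 5.64 and 8.69 CPM in NSC, 2.50 and 3.93 CPM in SAM, 4.77 and 7.32 CPM in B12 + MAT2Ai and 5.47 and 8.26 CPM in B12. Both SAM libraries were below all other libraries, with no overlap. Atf3 was 2.14-fold lower in SAM than in B12 (log2 fold change −1.09 ± 0.11, SE; adjusted p = 9.66e-05), with −1.11 within MEF 61.5 and −1.06 within MEF 61.3. It was 1.88-fold lower in SAM than in B12 + MAT2Ai (−0.91 ± 0.12, adjusted p = 0.000626) and 2.23-fold higher in NSC than in SAM (1.16 ± 0.11, adjusted p = 0.000143). NSC and B12 + MAT2Ai were close to B12, at 0.06 and −0.18, and passed no test. These calls were kept when any single library was left out. Behind the values were 90 to 295 reads per library, and the gene lies on chromosome 1 at 191170296 to 191218039 (GRCm38).

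The macrophage markers shared the direction of Atf3 in the comparisons with SAM and not in those of NSC with the cultures given B12. In SAM against B12, 15 of the 17 markers were called lower (88.2%, against 4.93% of all genes). Their median log2 fold change was −1.42. In NSC against SAM 15 were called higher (88.2%, against 5.1%), with a median of 0.94. In NSC against B12, 4 markers were called lower (23.5%, against 1.62%) and 15 passed at an unadjusted p below 0.05. The median of the markers was −0.47, where Atf3 had 0.06. In NSC against B12 + MAT2Ai, 2 were called lower (11.8%, against 1.83%). The median of the markers was −0.20, where Atf3 had 0.24 (adjusted p = 0.216). In B12 + MAT2Ai against B12 edgeR and DESeq2 called none of them, 5 passed at an unadjusted p below 0.05 and the median was −0.25, where Atf3 had −0.18 (adjusted p = 0.690). Per 1000 CPM of summed markers, Atf3 stood at 4.11 and 2.10 CPM in SAM and at 1.85 and 1.55 CPM in B12. The summed markers thus differed by more than Atf3 did. That sum is weighted to strongly expressed markers such as Lyz2. Within MEF 61.3, Adgre1 (−0.85) and C1qc (−0.93) differed between SAM and B12 by less than Atf3 did, beside a marker median of −1.12. The part of the macrophage transcripts in the Atf3 result was not tested.

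**Figure D3:**
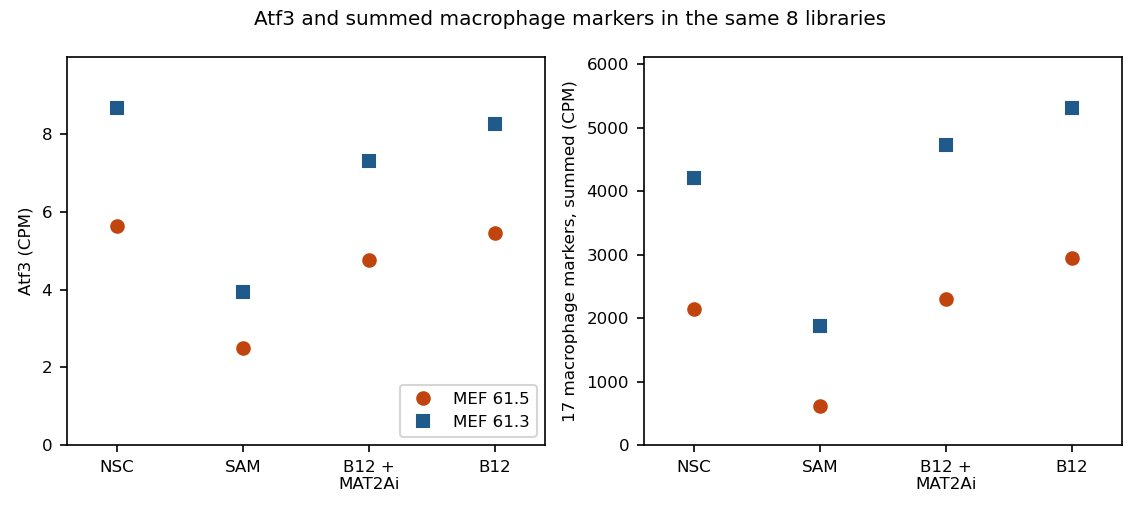
Level of Atf3 (left, CPM) and summed level of 17 macrophage markers (right, CPM) in each treatment, with circles for MEF 61.5 and squares for MEF 61.3. Both measures are lowest in SAM (2.50 and 3.93 CPM for Atf3, 609 and 1873 CPM for the markers) and, under each treatment, lower in MEF 61.5 than in MEF 61.3.

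Cebpb, a C/EBP protein that binds DNA with ATF4, was measured at 60.8 and 64.0 CPM in NSC, 43.0 and 54.6 CPM in SAM, 40.8 and 59.3 CPM in B12 + MAT2Ai and 47.3 and 52.9 CPM in B12. The NSC libraries were above all others. Cebpb was 1.29-fold higher in NSC than in SAM (0.37 ± 0.10, adjusted p = 0.0351), while its 0.32 and 0.34 against B12 and B12 + MAT2Ai did not pass (adjusted p = 0.152 and 0.0812). The call was lost without the SAM library of MEF 61.3 (adjusted p = 0.0817), that of MEF 61.5 (0.301) or the NSC library of MEF 61.5 (0.269).

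Of the other regulators none was called between treatments. Ddit3, the stress-induced C/EBP partner CHOP, had 8.13 and 8.54 CPM in NSC, 6.31 and 8.10 CPM in SAM, 7.72 and 8.50 CPM in B12 + MAT2Ai and 8.67 and 8.26 CPM in B12. Its log2 fold changes spanned −0.24 to 0.22, with a lowest adjusted p of 0.277. Its values turned on the SAM libraries: without that of MEF 61.3, Ddit3 was at −0.40 in SAM against B12 (adjusted p = 0.130) and 0.38 in NSC against SAM (0.108), and without that of MEF 61.5 at −0.09 and 0.06. Atf5, an ATF relative under similar translational control, ranged between 54.7 and 69.3 CPM over the libraries, Cebpg, the main dimer partner of ATF4 at the composite element, between 41.7 and 50.1, the stress cofactor Nupr1 between 18.9 and 22.8 and the repressor Jdp2 between 36.5 and 42.5. In SAM against B12 the regulators had a median of −0.06, with Atf3 as the only call among the 8 (12.5% lower, against 4.93% of all genes).

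The feedback genes restrain either the response or growth. Ddit4, an inhibitor of mTORC1 signalling, was the only one that differed. It had 21.5 and 18.8 CPM in NSC, 26.0 and 21.1 CPM in SAM, 17.8 and 15.3 CPM in B12 + MAT2Ai and 19.7 and 14.7 CPM in B12. Within each MEF, SAM was the highest and NSC the next. Ddit4 was 1.37-fold higher in SAM than in B12 (0.46 ± 0.08, adjusted p = 0.00333) and 1.42-fold higher in SAM than in B12 + MAT2Ai (0.51 ± 0.08, adjusted p = 0.00217), without overlap. NSC lay between, at 0.23 above B12 (adjusted p = 0.223) and −0.22 relative to SAM (adjusted p = 0.0975). The call against B12 stood with any library left out, and that against B12 + MAT2Ai was lost without the B12 + MAT2Ai library of MEF 61.5 (adjusted p = 0.0654).

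The feedback genes that most often report the response, Trib3, Chac1 and Sesn2, did not pass in any comparison. Trib3, a pseudokinase that inhibits ATF4, had 1.37 and 1.65 CPM in NSC, 1.20 and 0.887 CPM in SAM, 1.37 and 1.84 CPM in B12 + MAT2Ai and 1.55 and 2.01 CPM in B12. Both SAM libraries were below all others, from 43 and 30 reads, and the log2 fold change against B12 was −0.75 with a 95% interval of −1.28 to −0.22 (adjusted p = 0.0941). With no filter on low counts this gene passed (adjusted p = 0.0118), as it did without the SAM library of MEF 61.5 (−1.17, adjusted p = 0.0412). Without the SAM library of MEF 61.3 the log2 fold change was −0.38 (adjusted p = 0.476), so the value rests on single libraries. Chac1, a glutathione-degrading enzyme, had 1.14 and 1.35 CPM in NSC, 1.47 and 0.887 CPM in SAM, 1.23 and 1.18 CPM in B12 + MAT2Ai and 1.18 and 1.20 CPM in B12. Its groups overlapped throughout, but at 30 to 53 reads per library its intervals spanned −0.61 to 0.64, so a change of moderate size was not detectable. Chac1 was at −0.47 in SAM against B12 without the SAM library of MEF 61.5 and at 0.34 without that of MEF 61.3. Sesn2, a leucine sensor that restrains mTORC1, had 28.0 and 29.4 CPM in NSC, 28.4 and 27.1 CPM in SAM, 27.4 and 29.8 CPM in B12 + MAT2Ai and 28.0 and 29.9 CPM in B12. Its log2 fold changes stayed between −0.06 and 0.05, but without the SAM library of MEF 61.5 Sesn2 was at −0.14 in SAM against B12 (adjusted p = 0.489), −0.13 in SAM against B12 + MAT2Ai and 0.13 in NSC against SAM. The translational repressor gene Eif4ebp1 ranged between 45.4 and 53.1 CPM and Ppp1r15a, which directs the dephosphorylation of eIF2, between 17.7 and 23.2.

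Of the 17 calls between treatments, 8 fell on 5 of the 8 amino acid transporters and 9 on other members. In SAM against B12, 1 transporter was higher (12.5%, against 2.78% of all genes) and 2 were lower (25%, against 4.93%). In NSC against SAM, 2 were higher (25%, against 5.1%) and 1 was lower (12.5%, against 4.42%). In SAM against B12 + MAT2Ai, 1 was higher (12.5%, against 3.36%) and 1 was lower (12.5%, against 4.81%). These are shares of 8 genes, and nothing particular to transporters is read from them. LAT1, the product of Slc7a5, carries large neutral amino acids as a dimer with the heavy chain 4F2hc, the product of Slc3a2, and these 2 members moved in opposite directions in SAM against B12. Slc7a5 had 26.66 and 20.9 CPM in NSC, 36.3 and 26.69 CPM in SAM, 29.2 and 27.2 CPM in B12 + MAT2Ai and 26.2 and 23.2 CPM in B12. It was 1.27-fold higher in SAM than in B12 (0.34 ± 0.09, adjusted p = 0.0337) and 1.32-fold lower in NSC than in SAM (−0.40 ± 0.09, adjusted p = 0.0153). The SAM library of MEF 61.5 was the highest, and without it neither call stood (adjusted p = 0.347 and 0.242). Other libraries mattered too: the call against B12 was lost without the B12 library of MEF 61.5 (0.177) or that of B12 + MAT2Ai from MEF 61.3 (0.0539), and the call between NSC and SAM without the NSC library of MEF 61.3 (0.141) or of MEF 61.5 (0.0556).

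Slc3a2, the shared heavy chain of several transporters, had 84.5 and 90.4 CPM in NSC, 77.2 and 83.3 CPM in SAM, 89.5 and 97.3 CPM in B12 + MAT2Ai and 89.6 and 97.1 CPM in B12. Within each MEF the order was, lowest first, SAM, then NSC, then the cultures with B12. The macrophage sums had that order too and, as Slc3a2 did, were lower in MEF 61.5 under each treatment, and their part in this result was not tested. Slc3a2 was 1.16-fold lower in SAM than in B12 (−0.22 ± 0.06, adjusted p = 0.0381) and 1.16-fold lower in SAM than in B12 + MAT2Ai (−0.22 ± 0.06, adjusted p = 0.0369). The call against B12 was lost whichever library was left out (adjusted p = 0.0599 to 0.177), as was that against B12 + MAT2Ai except without either B12 library (0.057 to 0.301 for the others). Its other partner Slc7a11, the cystine importer, ranged between 92.4 and 107 CPM and was not called.

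Slc1a4, a neutral amino acid exchanger, repeated closely between embryos: 32.1 and 32.0 CPM in NSC, 26.9 and 27.0 CPM in SAM, 30.2 and 30.2 CPM in B12 + MAT2Ai and 32.3 and 32.4 CPM in B12. The SAM libraries were below all others, as were the macrophage sums within each MEF, but those sums differed between the embryos. Slc1a4 was 1.20-fold lower in SAM than in B12 (−0.26 ± 0.06, adjusted p = 0.0256) and 1.19-fold higher in NSC than in SAM (0.25 ± 0.06, adjusted p = 0.0294). The spread in the model is shared between genes, so a small step that repeated well still had an SE of 0.06. Both calls were lost without any 1 of the SAM or B12 + MAT2Ai libraries, the first also without a B12 library (adjusted p = 0.0597 to 0.14) and the second also without an NSC library (0.068 to 0.187).

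Slc38a2, the System A carrier SNAT2 that amino acid shortage induces, had 393 and 440 CPM in NSC, 286 and 353 CPM in SAM, 358 and 353 CPM in B12 + MAT2Ai and 346 and 365 CPM in B12. The NSC libraries were the highest in either MEF. Slc38a2 was 1.31-fold higher in NSC than in SAM (0.39 ± 0.08, adjusted p = 0.00961), and the call was lost without the NSC library of MEF 61.3 (0.0955), that of MEF 61.5 (0.0508) or the SAM library of MEF 61.5 (0.141). Slc7a1, the arginine and lysine importer CAT1, had 32.2 and 33.4 CPM in NSC, 42.7 and 36.9 CPM in SAM, 33.3 and 31.2 CPM in B12 + MAT2Ai and 34.3 and 37.6 CPM in B12. SAM overlapped with B12 but not with the other treatments. Slc7a1 was 1.24-fold higher in SAM than in B12 + MAT2Ai (0.30 ± 0.08, adjusted p = 0.0490), a call just inside the threshold that was lost without either B12 + MAT2Ai library (0.241 and 0.374), the SAM library of MEF 61.5 (0.363) or either NSC library (0.0577 and 0.0582). The glutamine exchanger Slc1a5 ranged between 121 and 140 CPM and the glycine carrier Slc6a9 between 3.98 and 7.27, and neither was called between treatments.

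**Figure D4:**
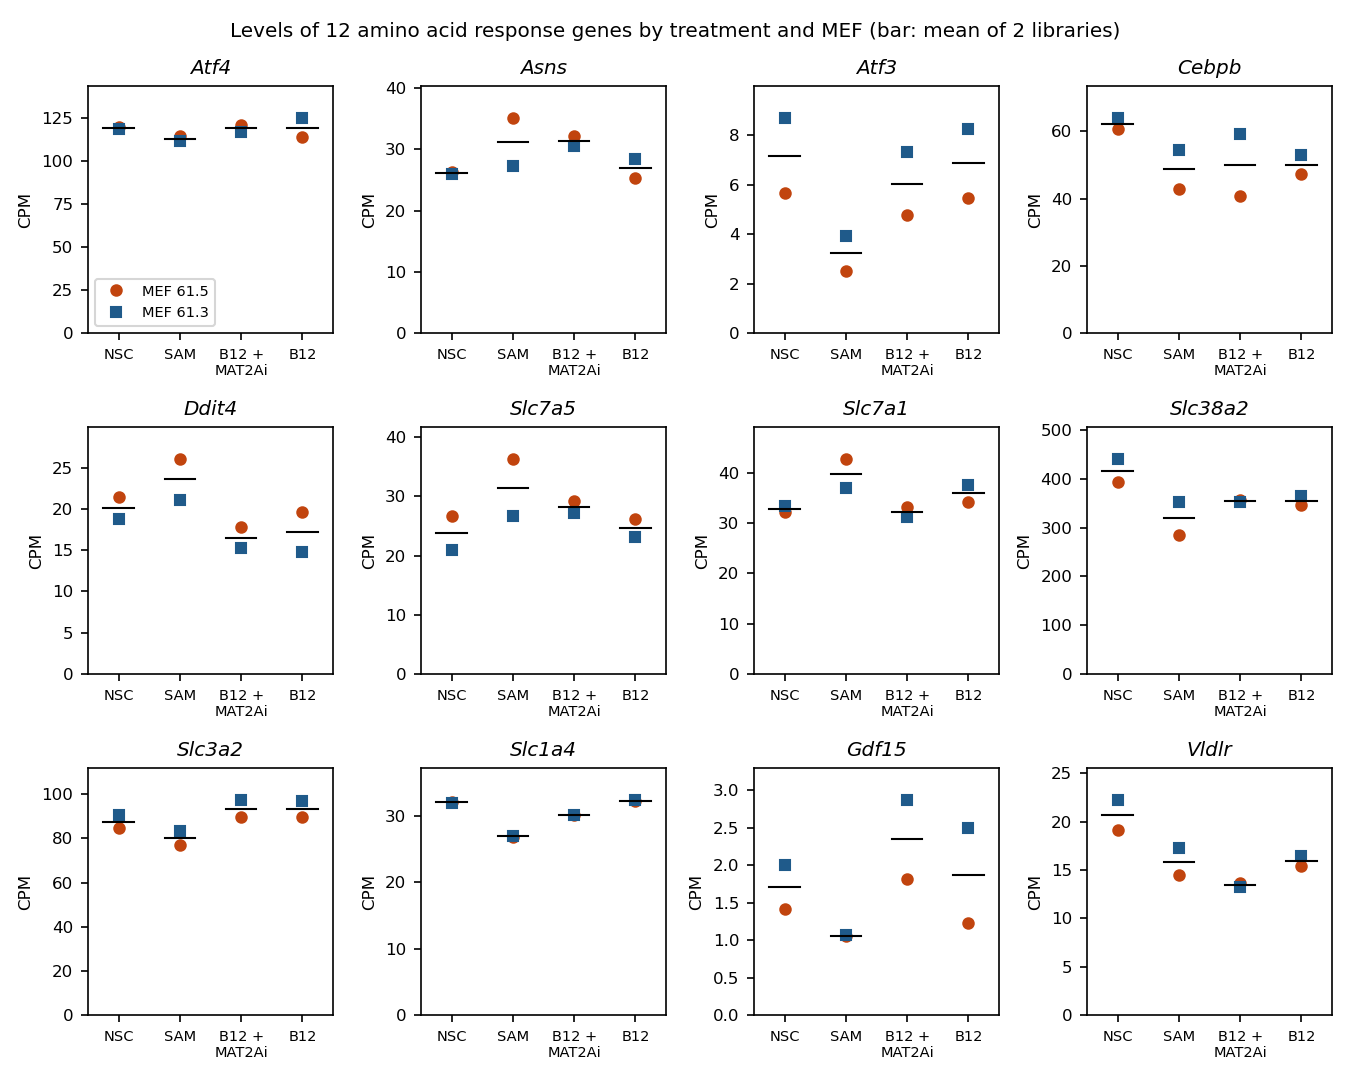
Level (CPM, from 0) of the 10 members called between treatments, with Atf4 and Asns, in NSC, SAM, B12 + MAT2Ai and B12; circles are MEF 61.5, squares MEF 61.3 and the bar their mean (n = 2). Atf4 lies at 112 to 125 CPM in every library, Atf3 is lowest in both SAM libraries and Slc1a4 nearly coincides between MEFs.

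The genes that charge tRNA differed little between treatments. Alanyl-, glycyl-, seryl-, tryptophanyl- and asparaginyl-tRNA synthetase (Aars, Gars, Sars, Wars, Nars) and the tRNA exporter Xpot gave no call between treatments by edgeR or DESeq2, and at most 2 of the 6 passed at an unadjusted p below 0.05. In SAM against B12 the 6 spanned −0.04 to 0.12, in NSC against B12 −0.17 to −0.01 and in NSC against SAM −0.24 to −0.02. Wars came nearest to a call, with 41.3 and 40.8 CPM in NSC, 50.6 and 46.3 CPM in SAM and 44.5 and 47.6 CPM in B12 (−0.24 in NSC against SAM, adjusted p = 0.0517). Sars, at 81.2 to 88.9 CPM, had the lowest coefficient of variation of all members.

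No enzyme of amino acid synthesis was called by edgeR or DESeq2, and at most 1 of the 5 passed at an unadjusted p below 0.05 in any comparison. Asns, asparagine synthetase and the classic target of the response, had 26.3 and 26.0 CPM in NSC, 35.1 and 27.4 CPM in SAM, 32.2 and 30.6 CPM in B12 + MAT2Ai and 25.4 and 28.4 CPM in B12. SAM and B12 overlapped, and the 95% intervals over the 6 comparisons spanned −0.49 to 0.45 with a lowest adjusted p of 0.150. Asns passed as higher in SAM than in B12 without the SAM library of MEF 61.3 (0.40, adjusted p = 0.0425) or the B12 library of MEF 61.3 (0.37, adjusted p = 0.0467). The difference was 0.01 without the SAM library of MEF 61.5 (adjusted p = 0.972) and 0.05 without the B12 library of MEF 61.5 (adjusted p = 0.868). It passed as lower in NSC than in SAM without the SAM library of MEF 61.3 (−0.44, adjusted p = 0.0222), with no filter on low counts (0.0373) or in a fit of the NSC and SAM libraries alone (−0.26, adjusted p = 0.0127), and was −0.05 without the SAM library of MEF 61.5 (adjusted p = 0.875). Asns also passed as lower in NSC than in B12 + MAT2Ai with no filter (adjusted p = 0.0445) or with those 4 libraries alone (0.0142). The alanine transaminase gene Gpt2 ranged between 15.1 and 17.8 CPM. The proline synthesis genes Pycr1 and Aldh18a1 ranged between 28.6 and 34.6 CPM and between 113 and 127 CPM, and the mitochondrial PEP carboxykinase gene Pck2 between 50.4 and 56.5 CPM.

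Of the secreted and surface products, Gdf15, a stress-induced TGF-β family hormone, had 1.42 and 2.00 CPM in NSC, 1.06 and 1.06 CPM in SAM, 1.82 and 2.87 CPM in B12 + MAT2Ai and 1.24 and 2.49 CPM in B12. Both SAM libraries were below all others, from 38 and 36 reads. Gdf15 was 2.18-fold lower in SAM than in B12 + MAT2Ai (−1.12 ± 0.24, adjusted p = 0.0151), while −0.77 against B12 did not pass (adjusted p = 0.0930). The call was lost without the SAM library of MEF 61.3 (0.203) or either B12 + MAT2Ai library (0.193 and 0.0948). In the same comparison 15 of the 17 macrophage markers were called lower (88.2%, against 4.81% of all genes), with a median of −1.19. The part of these markers in the Gdf15 result was not tested.

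Vldlr, a lipoprotein receptor, had 19.1 and 22.2 CPM in NSC, 14.5 and 17.3 CPM in SAM, 13.6 and 13.3 CPM in B12 + MAT2Ai and 15.4 and 16.5 CPM in B12. The NSC libraries were above all others. Vldlr was 1.53-fold higher in NSC than in B12 + MAT2Ai (0.62 ± 0.09, adjusted p = 0.00514) and 1.30-fold higher in NSC than in SAM (0.38 ± 0.09, adjusted p = 0.0193). The first call was lost without either B12 + MAT2Ai library (0.136 and 0.0536) or the NSC library of MEF 61.3 (0.0860), and the second without either NSC library (0.191 and 0.0589) or the SAM library of MEF 61.5 (0.216). Stc2, a secreted glycoprotein, had 2.92 to 6.09 CPM over the libraries and was not called between treatments.

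The embryos also differed from each other. In MEF 61.5 against MEF 61.3, with 1 embryo a side and 4 libraries each, Ddit4 and Slc7a5 were higher (2 of 36, or 5.56%, against 8.41% of all genes), and Atf3, Cebpb, Slc6a9, Gdf15 and Stc2 were lower (5 of 36, or 13.9%, against 10.3%). Stc2 was 1.58-fold lower in MEF 61.5 (−0.66 ± 0.09, adjusted p = 0.000291), with 3.51, 2.92, 3.93 and 3.13 CPM in MEF 61.5 and 5.54, 4.67, 6.09 and 4.99 CPM in MEF 61.3 under NSC, SAM, B12 + MAT2Ai and B12. Atf3 was 1.53-fold lower (−0.62 ± 0.08, adjusted p = 0.000201), by −0.62, −0.64, −0.61 and −0.59 under the same treatments. Both differences repeated closely under all treatments. The other calls were smaller, with Gdf15 at −0.59, Slc6a9 at −0.37, Cebpb at −0.28, Slc7a5 at 0.27 and Ddit4 at 0.28, and leaving out either SAM library ended those of Cebpb, Slc6a9 and Slc7a5 (adjusted p = 0.0576 to 0.107). Gdf15 lost its call without either library of NSC, B12 or B12 + MAT2Ai (0.0716 to 0.123), Cebpb without either of B12 + MAT2Ai (0.0838 and 0.0854), Slc6a9 without either of B12 (0.06 and 0.0611) and Slc7a5 without either of NSC (0.0523 and 0.0532). With treatment in the model, a treatment left with 1 library no longer informs the difference between embryos. Leaving out either library of a treatment is therefore nearly the same fit, and not 2 separate losses. DESeq2 did not call Slc6a9 (0.0666) or Gdf15 (0.126) between embryos. Reads of genes on opposite strands could be confused if strand was not used in counting. Tmem189 (mean count 1378.9) overlaps 20.7% of the exonic bases of Cebpb (1852.9). Ccdc24 overlaps 27.8% of those of Slc6a9 (208.0), but had a mean count of only 6.6. Among smaller overlaps with well-expressed genes, B4galt2 (2342.4) covers 0.9% of Slc6a9, Mars (1939.4) 4.0% of Ddit3 (280.6) and Nup62 (1673.6) 4.1% of Atf5 (2188.4).

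All 5 members called lower in MEF 61.5 (Atf3, Cebpb, Slc6a9, Gdf15 and Stc2) shared the direction of the macrophage markers between embryos. Of these 17 markers, 16 were called lower in MEF 61.5 (94.1%, against 10.3% of all genes), with a median of −1.13. Ddit4 and Slc7a5 shared the direction of 4 epithelial markers (Cdh1, Epcam, Krt8 and Krt18). The sum of these 4 was 11.5 and 5.18 CPM in NSC and 43.8 and 20.9 CPM in SAM. It was 12.2 and 5.91 CPM in B12 + MAT2Ai and 9.88 and 5.96 CPM in B12. Cdh1, the adhesion protein gained early in reprogramming, had 9.82 and 6.86 CPM in SAM and 2.26 and 1.95 CPM in B12, while Epcam was at most 0.668 CPM. Between embryos Cdh1 was not called (edgeR adjusted p = 0.0891). The shared directions were not particular to these 2 lists. Of 10 fibroblast markers, 4 were called lower in MEF 61.5 (40%, against 10.3% of all genes) and 1 higher (10%, against 8.41%), with a median of −0.13. The 4 endothelial markers lay between 0.04 and 0.55, with a median of 0.29 and 1 called higher (25%). The part of all these markers in the results on members was not tested.

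Lists of genes around the set were also followed. Among 15 genes of the eIF2 kinases, eIF2, its exchange factor and its regulators, 0 were called in SAM against B12. There 1 passed at an unadjusted p below 0.05 and DESeq2 called 0. In each comparison that involved NSC, 1 was called lower (6.67%). Of all genes, 1.62% were lower in NSC than in B12, 4.42% than in SAM and 1.83% than in B12 + MAT2Ai. That gene was Eif2ak2, the kinase PKR that responds to double-stranded RNA. It had 62.5 and 71.2 CPM in NSC, against 96.0 and 99.7 CPM in SAM, 99.5 and 96.3 CPM in B12 + MAT2Ai and 92.0 and 128 CPM in B12. The NSC libraries were below all others, and Eif2ak2 was lower in NSC than in B12 by −0.71 ± 0.10 (adjusted p = 0.00542), than in SAM by −0.55 (0.00671) and than in B12 + MAT2Ai by −0.56 (0.0172). Eif2ak4, which encodes GCN2, the amino acid sensor of the pathway, ranged between 28.6 and 31.0 CPM and was not called.

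Among 15 other tested targets of ATF4, 2 were higher (13.3%, against 2.78% of all genes) and 1 was lower (6.67%, against 4.93%) in SAM than in B12. Cth, the last enzyme of the route between homocysteine and cysteine, had 12.1 and 9.46 CPM in SAM and 8.46 and 7.63 CPM in B12 (0.42 ± 0.10, adjusted p = 0.0295). Phgdh, the entry enzyme of serine synthesis, had 73.8 and 67.0 CPM in SAM and 61.9 and 58.1 CPM in B12 (0.23 ± 0.06, adjusted p = 0.0437). Both were higher in SAM with no overlap. Both were also called lower in NSC than in SAM (−0.43 and −0.30, adjusted p = 0.0239 and 0.0105). That was 13.3% of the list, against 4.42% of all genes. How calls on genes outside the set held under other settings of the model was not followed. The autophagy receptor Sqstm1 was lower in SAM than in B12 (−0.29, adjusted p = 0.0199). Within each MEF it was lowest in SAM, and under each treatment lower in MEF 61.5, as the macrophage sums were. Their part in the Sqstm1 result was not tested. The angiogenic factor Vegfa was higher in NSC than in SAM (0.42, adjusted p = 0.00519) and than in B12 + MAT2Ai (0.33, adjusted p = 0.0360). As the only target called higher there, it was 6.67% of the list, against 5.1% and 1.76% of all genes. The median of these targets was −0.01 in SAM against B12.

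Of the remaining 15 cytosolic tRNA synthetases, edgeR called only Kars, for lysine, between treatments, as lower in NSC than in SAM (−0.26, adjusted p = 0.0207). That was 6.67% of the list, against 4.42% of all genes. Another list held 8 chaperones and other genes of the unfolded protein response, to which PERK, another eIF2 kinase, also belongs. Of these, 2 were called lower in SAM than in B12 (25%, against 4.93% of all genes). Sdf2l1 had 14.9 and 16.5 CPM in SAM and 21.1 and 23.6 CPM in B12 (−0.51, adjusted p = 0.00598). Edem1 was at −0.32 (adjusted p = 0.00541). Within each MEF, Sdf2l1 and Edem1 were lowest in SAM, and under each treatment they were lower in MEF 61.5. The macrophage sums did so too, and their part in these results was not tested. The median of the 8 genes was −0.16 in SAM against B12, where 4 of the 8 passed at an unadjusted p below 0.05. It was −0.18 in NSC against B12, where 6 passed at an unadjusted p below 0.05 and edgeR called none. These are counts in lists of 15 and 8 genes, and nothing particular to a list is read from them.

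Members found to hold the letters TGATGNAA had median changes close to those of the other members, of which 5 had no promoter to search. Of the 10 members called between treatments, 3 held them, namely Atf3, Slc1a4 and Vldlr, whose promoter windows are given above. In SAM against B12 the 13 members with the letters had a median of −0.02 with 2 called, and the 23 others a median of −0.05 with 3 called, where 7.71% of all genes were called in either direction. In NSC against SAM the medians were 0.09 and 0.05, with 3 called in either group and 9.52% of all genes.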

How the data were processed

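Raw counts per gene were deposited by the authors, who used STAR 2.5.2b (mm10, GRCm38) and featureCounts with an Ensembl annotation, and summed technical replicates. The methods state reverse-stranded, paired-end counting, but these libraries, from a stranded kit, were read single-end, so the options used for them are uncertain. The handling of multi-mapping reads is not given in the sources used here. Symbols and coordinates were taken from GENCODE M21, which matched 55141 of 55487 identifiers. Ddit3 had 2 identifiers, of which 1 had no reads. Exosc6 overlaps 14.3% of the exonic bases of Aars on the same strand.

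The main fit was a quasi-likelihood model in edgeR 4.0.16 (R 4.3.3, limma 3.58.1) of treatment and MEF over all 8 libraries, after filterByExpr by treatment (minimum count 10) and TMM scaling. Benjamini-Hochberg adjustment ran over 19392 genes, with calls below 0.05. CPM were TMM-scaled, and for values within a MEF a prior count of 2 was added before taking log2. Across treatment comparisons, log2 fold changes had a median SE of 0.0988 to 0.101. The block for MEF reflects a shared embryo, and deviations of same-MEF libraries correlated at 0.424 to 0.559. The fit was also run on simulated counts with the same spread for all genes and no embryo difference, so that run says nothing about the block.

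Alternatives were DESeq2 1.42.0, its size factors, no filter, no block, the compared libraries alone, and each library left out. Members and lists were chosen with earlier results of these data known. All members are named, with values in every library for those called between treatments and for Atf4, Ddit3, Trib3, Chac1, Asns and Sesn2. Other genes come from fixed lists and are named where called or needed for a result. Fgf21 had too few reads to be tested.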

Additional observations from a re-analysis of the deposited data

Results flagged for a closer look

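Some summaries of the set had opposite signs in the 2 embryos. For NSC against B12, the median log2 fold change of the members was 0.028 within MEF 61.5 and −0.025 within MEF 61.3. For SAM against B12 + MAT2Ai, it was 0.025 within MEF 61.5 and −0.014 within MEF 61.3. The difference between embryos was not tested. With 2 libraries per treatment, single far values within a treatment were not looked for.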

How the results depend on the processing

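No call on a member changed direction under any alternative. DESeq2's own test called 2 members in SAM against B12 (5.56%, with 5.46% of all genes). In SAM against B12 + MAT2Ai it called 3 (8.33%, with 5.51%). The edgeR test called 5 in each (13.9%, with 7.71% and 8.17% of all genes). Without the block for MEF, 0 members were called in SAM against B12, NSC against SAM, SAM against B12 + MAT2Ai and NSC against B12 + MAT2Ai. The paired fit called 5, 6, 5 and 1. Of all genes, the fit without the block called at most 0.00516% there, where the paired fit called 7.71%, 9.52%, 8.17% and 3.58%. With MEF alone in the model, 1 member (Stc2) differed between embryos (2.78%, with 3.21% of all genes). The full model called 7 (19.4%, with 18.8%). With no filter on low counts, 3 were called in NSC against B12 (8.33%, with 5.28% of all genes under that setting), 12 in NSC against SAM (33.3%, with 14.8%) and 5 in NSC against B12 + MAT2Ai (13.9%, with 9.63%). With the 4 compared libraries alone, 3 were called in SAM against B12 (8.33%, with 6.39% of all genes), 1 in NSC against B12 (2.78%, with 2.33%), 14 in NSC against SAM (38.9%, with 19.9%) and 7 in NSC against B12 + MAT2Ai (19.4%, with 11.7%). All-gene calls rose with those of the members in the comparisons with NSC under both settings. Leaving out 1 library at a time gave 2 to 4 in SAM against B12, 0 to 1 in NSC against B12, 1 to 11 in NSC against SAM, 1 to 5 in SAM against B12 + MAT2Ai, 0 to 4 in NSC against B12 + MAT2Ai and 4 to 5 between embryos. DESeq2's size factors left each count within 1.5 times that with edgeR's own scaling. B12 + MAT2Ai against B12 had 0 under all alternatives. The cause of these shifts was not tested. Where a left-out library leaves a treatment with 1 sample, that sample is assumed to vary like the others. Depth limits Trib3, Chac1 and Gdf15, at 30 to 100 reads per library.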
